A study of Mus musculus with 58 samples.

Results

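The gene group described here comprised 7 genes, Cyr61, Ctgf, Ankrd1, Amotl2, Lats2, Thbs1 and Edn1, out of 20095 genes listed in the bulk count files. They were selected by symbol, as known YAP-type targets together with 2 genes, Edn1 and Thbs1, whose response to inhibitors had already been seen in these data. The values behind that choice were the change of Edn1 after 6 h and of Thbs1 after 96 h of inhibition in standard medium. The changes of Ei and Mi against ENR in whole organoids, and their differences from the changes under Wnt and Notch inhibition, are therefore given as a description, with no p-value for a member.

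YAP and its paralog TAZ are transcriptional co-activators that the Hippo kinase cascade holds in the cytoplasm; in the nucleus they act through TEAD DNA-binding proteins. In the intestine YAP is known for its part in the regenerative response of the epithelium to injury, and it cooperates with AP-1 factors at many sites. EGFR signals through Ras, Raf and Mek to the ERK kinases, which induce their own feedback inhibitors. Among the members, Cyr61 and Ctgf encode secreted matricellular proteins of the CCN family, and Thbs1 encodes thrombospondin 1, a secreted matricellular glycoprotein that binds CD47 and CD36. Edn1 encodes the peptide ligand endothelin 1. Ankrd1 encodes an ankyrin-repeat protein that is abundant in striated muscle. Amotl2, an angiomotin that retains YAP in the cytoplasm, and Lats2, the kinase that phosphorylates YAP, are themselves YAP targets and inhibit it.

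Expression was measured by CEL-seq, which counts the 3' ends of transcripts, in mouse small-intestinal organoids of strain Bl/6, cultures of intestinal epithelium. The standard medium is called ENR (EGF, Noggin and R-spondin), Ei is ENR with EGFR inhibition and Mi is ENR with Mek inhibition. ID denotes Wnt and Notch inhibition together, and IDE and IDM denote ID with EGFR or Mek inhibition added. Each of these 6 groups had 3 whole-organoid libraries at 6 h and 3 at 96 h. The labels give no genotype for these organoids. The sorted set had 14 libraries. Lgr5+ cells came from organoids of Lgr5-GFP mice or of Lgr5-DTR mice and Dclk1+ cells from organoids of Dclk1-GFP mice. Each line had 2 libraries in ENR and 2 in Ei. A further 2 libraries came from whole organoids titled as controls. The labels give no time for the sorted cells. Single cells filled 8 libraries: IDE had 4, IDM had 2, and ENR and Ei had 1 apiece. Nothing in the labels says that replicates came from separate cultures or animals, so each test measures the spread between libraries, which may be technical.

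Depth, as total counts in a library, spanned 448292 to 2763423 for the 6 h set. The 96 h set spanned 158135 to 1738425 and the sorted set 668893 to 3599554. The ID group and the ENR group belong to separate numbered library sets, as do the 6 h and 96 h libraries. Medium and set therefore cannot be told apart in the comparison of ID with ENR, and 6 h was not compared with 96 h. In these bulk libraries, fewer cells of a type and less RNA per cell cannot be told apart. Dusp6, an ERK-induced phosphatase and the check on the inhibitors, averaged 41.9 CPM (SD 3.57, n = 3) in ENR at 6 h against 9.55 (SD 0.247) in Ei and 3.86 (SD 1.06) in Mi. CPM here are counts per 1000000 of the TMM-adjusted library total. Of 8 fibroblast markers, 2 had counts in each of ENR, Ei and Mi at 6 h. At 96 h 6 had counts in ENR, 2 in Ei and 5 in Mi, with Dcn and Lum at 0 in these groups at both times. The 8 summed to at most 6.89 CPM in any 6 h library and to at most 61.4 CPM in any 96 h library. Epithelial markers summed to between 2570 and 4880 CPM in every whole-organoid library at either time.

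Cyr61, Amotl2, Thbs1 and Edn1 passed the low-count filter in all 3 bulk sets. Ankrd1 passed it at 96 h alone, through the Ei and Mi groups, and Ctgf and Lats2 passed it in no bulk set. On mm10 (GRCm38), the protein-coding members lay on 7 chromosomes. Thbs1 (ENSMUSG00000040152.8) lay at chr2:118111876-118127133 and Cyr61 (ENSMUSG00000028195.4) at chr3:145646976-145649981. Amotl2 (ENSMUSG00000032531.15) lay at chr9:102716672-102733418 and Ctgf (ENSMUSG00000019997.11) at chr10:24595442-24598683. Edn1 (ENSMUSG00000021367.8) lay at chr13:42301476-42307990, Lats2 (ENSMUSG00000021959.16) at chr14:57689662-57758388 and Ankrd1 (ENSMUSG00000024803.9) at chr19:36111961-36120099. Cyr61 and Ctgf are named Ccn1 and Ccn2 in GENCODE M21.

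Promoter windows of 250 bases before the RefSeq start, on GRCm38.p6, were found for Cyr61, Amotl2, Edn1, Ankrd1 and Lats2. The starts are not those of the GENCODE genes above in every case: the windows of Amotl2, Ankrd1 and Lats2 lie within the GENCODE gene, downstream of its first base. The letters GGAATG, the core recognised by TEAD, were searched on both strands, so that CATTCC also counted. The windows of the 4 members that hold a match are shown, with the match in capitals and each written 5′ to 3′ on the strand of its gene.
Cyr61, chr3:145649986-145650235, minus strand: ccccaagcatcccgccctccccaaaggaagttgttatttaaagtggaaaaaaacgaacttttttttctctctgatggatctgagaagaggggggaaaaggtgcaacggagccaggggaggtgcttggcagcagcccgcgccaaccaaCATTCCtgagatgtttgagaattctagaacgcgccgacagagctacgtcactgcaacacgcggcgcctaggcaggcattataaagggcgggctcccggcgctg
Amotl2, chr9:102717554-102717803, plus strand: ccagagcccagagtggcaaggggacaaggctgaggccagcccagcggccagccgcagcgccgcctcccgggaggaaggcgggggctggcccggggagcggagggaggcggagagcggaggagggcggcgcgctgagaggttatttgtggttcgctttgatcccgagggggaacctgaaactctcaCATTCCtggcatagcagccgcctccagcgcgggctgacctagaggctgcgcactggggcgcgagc
Edn1, chr13:42301226-42301475, plus strand: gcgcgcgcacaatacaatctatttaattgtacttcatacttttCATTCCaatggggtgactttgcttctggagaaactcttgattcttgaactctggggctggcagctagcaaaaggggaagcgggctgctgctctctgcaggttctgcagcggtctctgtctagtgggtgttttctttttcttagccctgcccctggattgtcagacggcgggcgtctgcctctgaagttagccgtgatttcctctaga
Ankrd1, chr19:36119845-36120094, minus strand: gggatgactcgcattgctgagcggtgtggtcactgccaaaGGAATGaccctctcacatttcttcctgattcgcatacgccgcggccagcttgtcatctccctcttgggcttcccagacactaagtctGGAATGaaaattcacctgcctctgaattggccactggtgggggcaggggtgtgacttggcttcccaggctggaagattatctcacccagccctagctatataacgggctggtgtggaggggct
Ankrd1 held 2 matches, starting 210 and 123 bases before the start, and Cyr61, Amotl2 and Edn1 held 1 each, starting 103, 65 and 207 bases before it. Neither window of Lats2 held the letters. Over all 32851 RefSeq windows of that length, 12.6% held at least 1 match, and of 27025 genes 14.4% held 1 in any of their windows. Most members were chosen as known YAP-type targets, so their matches are a description and test nothing. The AP-1 letters TGANTCA, which do not overlap the TEAD letters, were in none of these windows and in 6.7% of all windows. A match is a string of letters and not a measured binding site.

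After 6 h in standard medium Edn1 had the largest change of the 4 tested members in both inhibitors, and Cyr61 was also higher in both. In ENR the 3 libraries held Edn1 at 4.89, 2.73 and 8.01 CPM. In Ei they held it at 63.6, 51.1 and 63.5 CPM and in Mi at 25.1, 35.3 and 34.1 CPM. Every Ei and Mi library lay above every ENR library. The log2 change was 3.42 (SE 0.30), or 10.7-fold, in Ei and 2.52 (SE 0.33), or 5.74-fold, in Mi. Cyr61 was at 8.15, 8.20 and 2.91 CPM in ENR, at 10.8, 15.9 and 20.5 CPM in Ei and at 13.8, 18.5 and 23.9 CPM in Mi. Here too neither inhibitor group overlapped ENR, with log2 changes of 1.34 (SE 0.42) in Ei and 1.56 (SE 0.41) in Mi. The share of all genes that separate so was determined only for Ei and Mi together against ENR at 96 h. For all other groups nothing is read from separation alone.

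Thbs1 at 6 h was at 4.89, 4.56 and 4.37 CPM in ENR, at 4.80, 15.3 and 11.7 CPM in Ei and at 6.05, 10.6 and 7.36 CPM in Mi. Its lowest Ei library lay within the ENR range and its Mi libraries lay above it, with log2 changes of 1.28 (SE 0.44) in Ei and 0.78 (SE 0.47) in Mi. Amotl2 overlapped between ENR and both inhibitors, with log2 changes of 0.46 (SE 0.35) in Ei and 0.44 (SE 0.35) in Mi. By edgeR at an adjusted p under 0.05, 3 of the 4 members tested were higher in Ei, where 13.3% of the 9380 genes tested were, and 2 of 4 were higher in Mi, where 10.2% of genes were. Without ENR replicate 3 or Ei replicate 3 the count in Ei was 1, and without ENR replicate 3 the count in Mi was 1. Nothing is read from these counts, since the choice of members used these contrasts, and Ei and Mi share their ENR libraries.

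The members below the filter at 6 h did not share one direction. Ctgf was counted 15, 5 and 13 times in the ENR libraries, 3, 8 and 5 times in Ei and 3, 5 and 4 times in Mi. Its counts in the inhibitors were thus at or below those of most ENR libraries. Ankrd1 had 2 counts in the ENR group, 7 in Ei and 14 in Mi, a count ratio of 3.69 (95% interval 0.703 to 36.4) for Ei and 7.72 (1.77 to 70) for Mi. These exact intervals cover counting error only. Fitted without the low-count filter, Ankrd1 was called higher in Mi and not in Ei. Lats2 was counted 10, 1 and 1 times in ENR, 5, 8 and 12 times in Ei and 2, 4 and 5 times in Mi, so that a single ENR library held most of its ENR counts.

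The same inhibitors given on top of Wnt and Notch inhibition for 6 h were a test on libraries that the choice of members had not used. Edn1 rose in both. It was at 4.47, 10.3 and 3.70 CPM in ID, at 40.6, 35.7 and 31.7 CPM in IDE and at 32.4, 33 and 39.5 CPM in IDM, and no IDE or IDM library came near the ID range. By edgeR's quasi-likelihood test the log2 change was 2.37 (SE 0.31, adjusted p = 4.8e-07) in IDE and 2.37 (SE 0.32, adjusted p = 7.3e-07) in IDM, 5.18-fold and 5.17-fold.

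Thbs1 rose as well, from 2.24, 1.38 and 2.22 CPM in ID to 7.11, 10.9 and 6.05 CPM in IDE and 9.53, 5.75 and 9.21 CPM in IDM. The groups did not overlap, and by edgeR it was 4.02-fold higher in IDE (adjusted p = 0.008) and 4.21-fold higher in IDM (adjusted p = 0.0081). Both calls rest on few counts, 1, 2 and 3 in the ID libraries, and both were lost without ID replicate 2, at adjusted p of 0.075 and 0.073. Amotl2, the YAP-retaining angiomotin, was at 2.24, 10.3 and 3.70 CPM in ID, at 19.3, 21.1 and 16.4 CPM in IDE and at 10.5, 13.7 and 15.1 CPM in IDM. It rose in IDE, by a log2 change of 1.53 (SE 0.37, adjusted p = 0.0022 by edgeR), while in IDM the change of 1.05 (SE 0.40) had an adjusted p of 0.057. With the replicate number as a block the adjusted p for IDM was 0.048, and without ID replicate 2 it was 0.0099.

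Cyr61 did not pass in this medium. It was at 0, 6.89 and 11.1 CPM in ID, at 9.14, 16.1 and 15.7 CPM in IDE and at 12.4, 12.2 and 13.2 CPM in IDM, and IDE overlapped ID. Its log2 changes were 0.91 (SE 0.40, adjusted p = 0.10 by edgeR) and 0.74 (SE 0.42, adjusted p = 0.23). Without ID replicate 3 the IDE change passed, at an adjusted p of 0.048 by edgeR. In all, 3 of 4 tested members rose in IDE, beside 9.97% of the 9380 genes, and 2 of 4 in IDM, beside 9.71% of genes. Both comparisons share the ID libraries, and ID replicate 1, the shallowest 6 h library with 448292 counts, held 0 counts of Cyr61. Ankrd1 had 1 count in ID, 11 in IDE and 18 in IDM, a count ratio of 6.98 (1.01 to 301) and 14 (2.21 to 584). Without the low-count filter it passed in IDM (adjusted p = 0.016 by edgeR) and not in IDE (adjusted p = 0.20).

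No tested member differed between Mek and EGFR inhibition at 6 h by edgeR, where 0.0959% of genes were called. At an unadjusted p under 0.05 there was 1, Edn1, which was 0.90 lower in Mi than in Ei on the log2 scale (95% interval -1.36 to -0.45, adjusted p = 0.18), and DESeq2 called 0. The Edn1 libraries of Mi and Ei did not overlap. Between IDM and IDE 0 members were called by edgeR and by DESeq2 and 0 had an unadjusted p under 0.05, where 0.0213% of genes were called. The interval for Edn1 ran from -0.46 to 0.45 on the log2 scale and that for Thbs1 from -0.72 to 0.85. ID and ENR at 6 h likewise gave 0 called members by edgeR, 0 by DESeq2 and 0 at an unadjusted p under 0.05, where 0.224% of genes were called. Thbs1 was 1.27 lower in ID (95% interval -2.58 to 0.04) and Amotl2 0.82 lower (95% interval -1.66 to 0.02). The difference between media in the inhibitor effects, ID minus ENR, gave 0 called members at 6 h for EGFR and for Mek, where 0.0% of genes passed in each. At an unadjusted p under 0.05 there were 540 and 509 genes, 2 of them members for EGFR and 0 for Mek, and DESeq2 called 0 members in each; nothing is read from these counts, which contain the changes in standard medium. The Edn1 effect of the EGFR inhibitor was 1.05 smaller in ID (95% interval -2.07 to -0.02) and that of Amotl2 was 1.07 larger (95% interval 0.02 to 2.11).

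**Figure D1:**
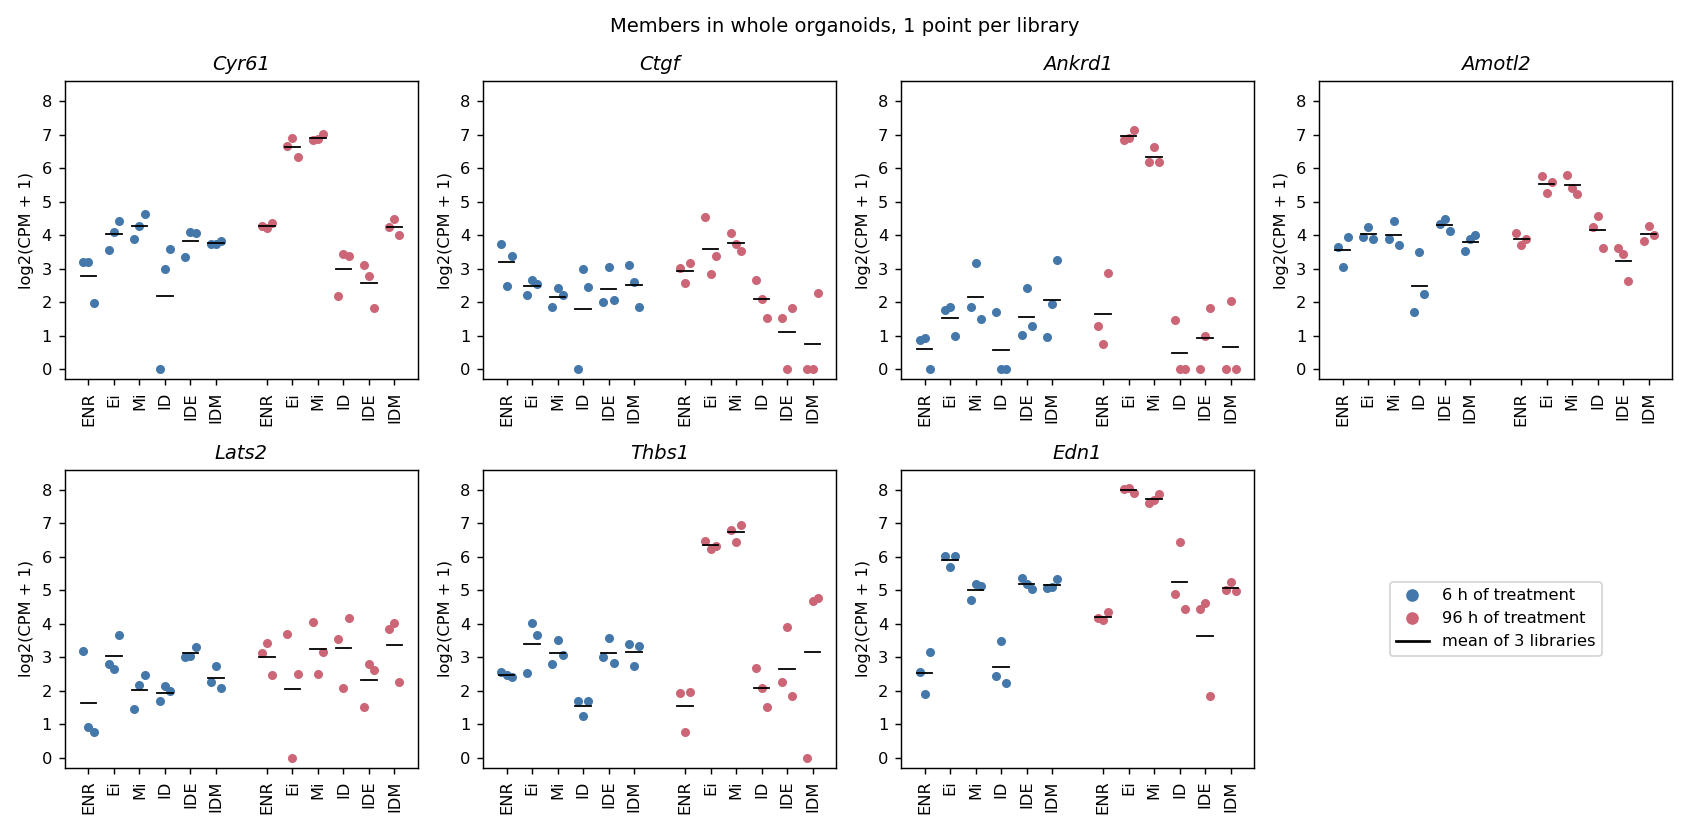
Log2(CPM + 1) of each member in every whole-organoid library, by group, with 6 h in blue and 96 h in red; the bar is the mean of the 3 values on that scale. At 96 h the Ei and Mi libraries of Cyr61, Ankrd1, Thbs1, Edn1 and Amotl2 stand above the other 4 groups, while Ctgf and Lats2 show no such separation from ENR in every library. This is a description, since the choice of members used Ei and Mi, and the share of all genes above all 4 groups was not determined.

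After 96 h in standard medium the 5 members tested were all higher in both inhibitors. In each of the 5 every Ei and Mi library lay above every ENR library, as in 9.6% of the 8135 genes tested. Thbs1 went from 2.85, 0.703 and 2.88 CPM in ENR to 87.5, 74.4 and 79.9 CPM in Ei and 110, 86.5 and 124 CPM in Mi. That was a log2 change of 5.12 (SE 0.46), or 34.7-fold, in Ei and 5.50 (SE 0.40) in Mi. Ankrd1 was at 1.42, 0.703 and 6.35 CPM in ENR, at 113, 118 and 141 CPM in Ei and at 71.4, 98.9 and 72.3 CPM in Mi. Its fold was 38 (log2 5.25, SE 0.39) in Ei and 25 (log2 4.64, SE 0.38) in Mi. Without ENR replicate 3, at 6.35 CPM, the log2 change was 6.59 in Ei and 5.98 in Mi. Ankrd1 passed the filter through these groups, so it had to differ.

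Edn1 was at 17.1, 16.2 and 19.6 CPM in ENR, at 261, 266 and 240 CPM in Ei and at 195, 208 and 234 CPM in Mi. Replicates within each group were close, and the log2 change was 3.84 (SE 0.30) in Ei and 3.57 (SE 0.28) in Mi. Cyr61 was at 18.5, 17.6 and 19.6 CPM in ENR, at 99.5, 118 and 79.9 CPM in Ei and at 114, 116 and 129 CPM in Mi. Its log2 changes were 2.39 (SE 0.25) and 2.67 (SE 0.22). Amotl2 had the smallest change of the 5, from 15.7, 11.9 and 13.8 CPM in ENR to 53.2, 37.2 and 47 CPM in Ei and 54.5, 41.7 and 36.8 CPM in Mi. That was 3.45-fold (log2 1.79, SE 0.32) in Ei and 3.19-fold (log2 1.68, SE 0.27) in Mi. The call of 5 of 5 tested members in each stood beside 9.45% of the 8135 genes that were higher in Ei and 11.5% that were higher in Mi, and as at 6 h nothing is read from these counts.

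Ctgf at 96 h was counted 10, 7 and 14 times in ENR, 13, 1 and 2 times in Ei and 13, 8 and 8 times in Mi, which at the lower depth of Ei corresponds to 22.3, 6.20 and 9.40 CPM against 7.11, 4.92 and 8.08 CPM in ENR. Its Mi libraries lay above the ENR libraries and its Ei libraries overlapped them. Lats2 was at 7.83, 9.84 and 4.62 CPM in ENR, 12, 0 and 4.70 CPM in Ei and 15.7, 4.63 and 7.89 CPM in Mi, so all 3 groups overlapped. Without the low-count filter edgeR gave Ctgf a log2 change of 1.07 (SE 0.58) in Ei and 0.83 (SE 0.50) in Mi, and Lats2 one of 0.01 (SE 0.54) and 0.32 (SE 0.50).

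Markers of secretory cells were also higher in Ei at 96 h, and several of them were high in ID, IDE or IDM too. The Paneth cell lysozyme Lyz1 ranged from 10420 to 14760 CPM in Ei and from 9432 to 10930 CPM in Mi, against 1069 to 1315 CPM in ENR. It rose 10.4-fold in Ei (adjusted p = 5.5e-14 by edgeR), and the enteroendocrine Chga rose 14.1-fold (adjusted p = 1.1e-13). In ID, IDE and IDM the tested members were lower than in Ei and Mi, and so was Lyz1, at 948 to 2161 CPM. Chga reached 1404 to 1821 CPM in IDE and 2279 to 2644 CPM in IDM. Muc2 rose 5.17-fold in Ei (adjusted p = 1.4e-09 by edgeR) and 22.7-fold in ID against ENR (adjusted p = 1.8e-15). Chga rose 15.5-fold in ID against ENR (adjusted p = 1.8e-14 by edgeR). Dclk1 averaged 62.8 CPM in Ei and 159 CPM in IDM. The part of these cells in the members' change in whole organoids was not tested. The 8 fibroblast markers at 96 h summed to between 2.13 and 7.5 CPM in ENR and to between 6.05 and 23.7 CPM in Ei and Mi. In ID, IDE and IDM they summed to between 16.2 and 61.4 CPM. The part of such cells in the members' change was not tested either.

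No member differed between Mi and Ei at 96 h by edgeR, where 1.08% of genes were called. DESeq2 called 0 as well, and at an unadjusted p under 0.05 there was 1, Ankrd1, at 0.61 lower in Mi (95% interval -1.19 to -0.02, adjusted p = 0.47). For Edn1 the interval of the difference ran from -0.78 to 0.25 and for Thbs1 from -0.24 to 1.00.

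Under Wnt and Notch inhibition for 96 h, every IDE and IDM library of the 5 tested members lay below every Ei and Mi library, which belong to another library set. The share of all genes that did so was not determined. Nothing is read from this separation, since the choice of members used Ei and Mi and Ankrd1 passed the filter through them. Edn1 was at 28.7, 85.4 and 20.7 CPM in ID, at 20.8, 23.8 and 2.58 CPM in IDE and at 31.1, 36.9 and 30.4 CPM in IDM. In IDE it fell, by 1.13 on the log2 scale (SE 0.41, adjusted p = 0.045 by edgeR), the opposite direction to its change in Ei, although IDE and ID overlapped. The call was lost without ID replicate 2, the library at 85.4 CPM (adjusted p = 0.47), and without IDE replicate 1 or 3 (0.06 and 0.15). In IDM the change was -0.26 (95% interval -1.17 to 0.64). The count of 1 of 5 tested members lower in IDE stood beside 13.1% of genes.

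Thbs1 was at 5.38, 3.28 and 1.88 CPM in ID, at 3.79, 13.9 and 2.58 CPM in IDE and at 0, 24.6 and 26.6 CPM in IDM. It rose in IDM, by a log2 change of 2.29 (SE 0.78, adjusted p = 0.047 by edgeR), with 1 of the 3 IDM libraries at 0 and the groups overlapping. Of the 6 ways to leave out 1 library, 5 ended this call: without ID replicate 1, 2 or 3 the adjusted p was 0.066, 0.089 and 0.14, and without IDM replicate 2 or 3 it was 0.23 and 0.18. It was the 1 of 5 tested members called higher in IDM, beside 5.37% of genes. Cyr61 was at 3.59, 9.85 and 9.41 CPM in ID, at 7.57, 5.94 and 2.58 CPM in IDE and at 17.8, 21.5 and 15.2 CPM in IDM. All 3 IDM libraries lay above ID and IDE, yet neither IDM against ID (log2 1.33, SE 0.51, adjusted p = 0.10 by edgeR) nor IDM against IDE (log2 1.66, SE 0.50, adjusted p = 0.059) passed. IDM against IDE gave 0 called members by edgeR and by DESeq2, where 4.7% of genes were called, and 1 at an unadjusted p under 0.05. Amotl2 was at 17.9, 23 and 11.3 CPM in ID, at 11.4, 9.90 and 5.15 CPM in IDE and at 13.3, 18.4 and 15.2 CPM in IDM, with no call in either. Ankrd1 had at most 1 count in any of these 9 libraries and Ctgf at most 3.

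ID itself differed from ENR at 96 h in 2 members, beside 38.1% of genes in either direction. Cyr61 fell by 1.34 on the log2 scale (SE 0.40, adjusted p = 0.0081 by edgeR), with every ID library below every ENR library. The call was lost without ID replicate 1 (adjusted p = 0.12). Edn1 rose by 1.16 (SE 0.37, adjusted p = 0.012 by edgeR), with every ID library above every ENR library, and the call was lost without ID replicate 2 (adjusted p = 0.34). Medium and library set cannot be told apart here.

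The change that an inhibitor made in ID minus the change it made in ENR was negative at 96 h for each tested member. For the EGFR inhibitor the difference was -4.97 (SE 0.51) for Edn1, -3.91 (SE 1.2) for Thbs1, -2.72 (SE 0.64) for Cyr61 and -2.62 (SE 0.54) for Amotl2, and these 4 of 5 passed the call rule, beside 7.84% of genes. For the Mek inhibitor it was -3.84 (SE 0.52) for Edn1, -3.21 (SE 1.1) for Thbs1, -1.74 (SE 0.54) for Amotl2 and -1.34 (SE 0.59) for Cyr61, and 1 of 5 passed it, Edn1, beside 3.45% of genes. These differences contain the effects in standard medium that led to the choice of members, so nothing is read from the counts. Leaving out ID replicate 1 ended the Thbs1 call for the EGFR inhibitor, leaving out ID replicate 3 ended that of Cyr61, and leaving out ID replicate 3 added Amotl2 for the Mek inhibitor. In ID, where Ankrd1 was at or under 3 counts per group, it gave no fold.

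**Figure D2:**
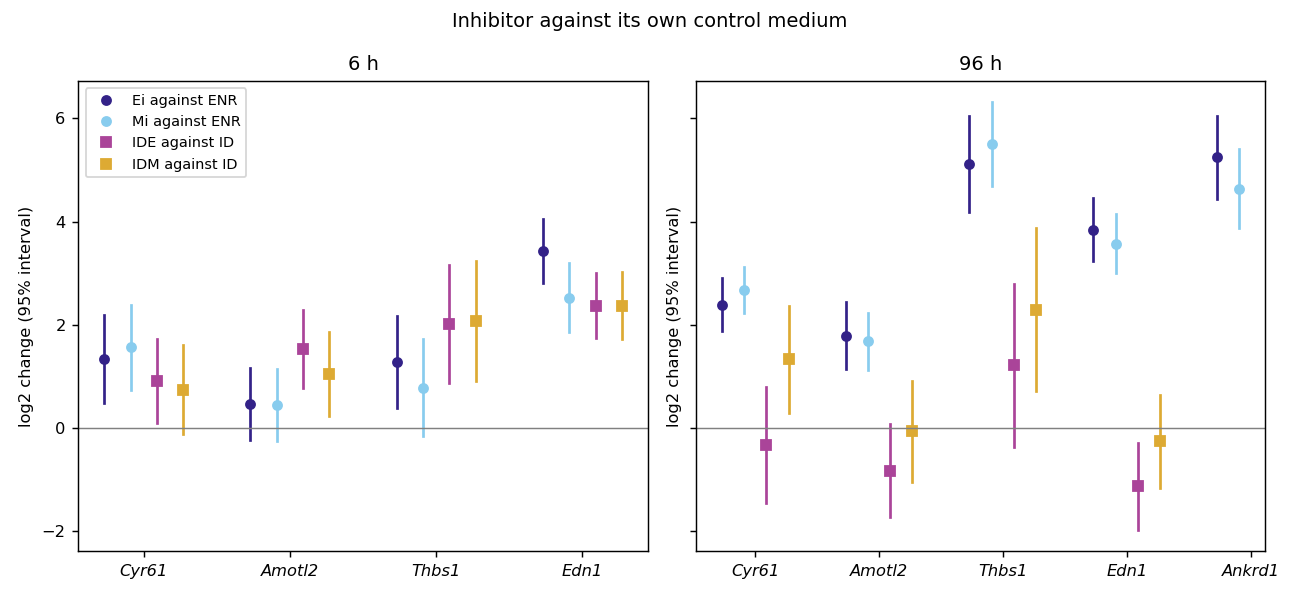
Log2 change with its 95% interval of each inhibitor against its own control medium, at 6 h and 96 h, for the members tested; circles are changes in standard medium and squares changes under Wnt and Notch inhibition. At 6 h the Edn1 and Thbs1 changes are above 0 in both media, but the Thbs1 interval in Mi, -0.16 to 1.73, crosses 0. At 96 h the changes in standard medium lie above those under Wnt and Notch inhibition, with overlapping intervals for Cyr61 with the Mek inhibitor. Ankrd1 has no value under Wnt and Notch inhibition because its counts there were at or under 3 per group.

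Other genes of the pathway, taken from whole lists of known targets and core components, are described by their counts. Over all genes tested, 13.3% were higher and 14.9% lower in Ei at 6 h and 10.2% and 12.9% in Mi, and at 96 h 9.45% and 8.92% in Ei and 11.5% and 11.8% in Mi. Of 17 further YAP targets, 8 were tested at 6 h and 1 was higher and 1 lower in Ei, with a median log2 change of -0.14 against 0.03 over all genes. F3, which encodes tissue factor, fell 5.53-fold in Ei (adjusted p = 2.6e-05 by edgeR) and 3.48-fold in Mi (adjusted p = 0.00059). At 96 h 6 were tested, of which 0 were called in Ei (median -0.22 against 0.02) and 1 was lower in Mi, Dock5, 2.79-fold (adjusted p = 0.00079 by edgeR). Of the 23 core Hippo genes, 17 were tested at 6 h, with 2 higher and 2 lower in Ei and 2 higher and 0 lower in Mi. Wwtr1, which encodes TAZ, rose 1.78-fold in Ei (adjusted p = 0.0075 by edgeR) and 1.92-fold in IDE (adjusted p = 0.0029), and Amot, an angiomotin that retains YAP, rose 1.62-fold in Ei (adjusted p = 0.031) and 2.04-fold in Mi (adjusted p = 0.0014). The 2 that fell in Ei were Nf2, the upstream inhibitor merlin, 1.47-fold (adjusted p = 0.02 by edgeR), and Stk4, which encodes the kinase MST1, 1.40-fold (adjusted p = 0.03). At 96 h 16 were tested, with 1 higher and 0 lower in Ei and 3 higher and 0 lower in Mi. In IDE 0 were higher and 3 lower, beside 13.1% of genes lower, and in IDM 0 were higher and 2 lower, beside 8.15%. Nothing is read from these counts. Yap1 fell 2.04-fold in IDE (adjusted p = 0.0051 by edgeR) and 1.96-fold in IDM (adjusted p = 0.033). Tead1 fell 2.64-fold in IDE (adjusted p = 0.00047 by edgeR) and 2.19-fold in IDM (adjusted p = 0.021). Wwtr1 fell 3.95-fold in ID against ENR (adjusted p = 1.2e-05 by edgeR).

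Of 14 targets of SRF, which also respond to actin dynamics, 10 were tested. At 6 h 0 rose and 3 fell in Ei, Tagln2 (1.75-fold, adjusted p = 9.4e-06 by edgeR), Tpm4 and Actb, whereas at 96 h 3 rose and 0 fell in Ei, with filamin A (Flna) 4.25-fold higher (adjusted p = 1.1e-06). For the EGFR inhibitor in ID minus in ENR at 96 h, 8 of these 10 were lower, with a median of -1.26 against -0.05 over all genes. Among 11 ERK feedback genes 6 were tested at 6 h and 5 were lower in each of Ei, Mi, IDE and IDM. Among 11 receptors of thrombospondin 1 and the CCN proteins, 9 were tested at 6 h. The integrin Itgb1 fell 1.34-fold in Ei and 1.51-fold in IDE (adjusted p = 0.022 and 0.0015 by edgeR), and Cd47, a thrombospondin 1 receptor, rose 1.37-fold and 1.42-fold (adjusted p = 0.048 and 0.032). Of the 8 other CCN and thrombospondin genes 0 passed the filter in any bulk set. Of 6 other genes of the endothelin system 1 passed it at each time, and it was not called in any of the 4 inhibitor comparisons at 6 h or 96 h.

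Across the 36 whole-organoid libraries, the genes whose log2 CPM, centred on the mean of its time, correlated best with each member, out of 7906 tested at both times, shared 1 name. Jun, which encodes an AP-1 subunit, was among the 3 best for Cyr61 (r = 0.877), Thbs1 (r = 0.870), Edn1 (r = 0.891) and Amotl2 (r = 0.873). For Edn1 the best were Lbh (r = 0.927) and Rasl11b (r = 0.918), for Cyr61 also Dtx4 (r = 0.861), and for Thbs1 also the Paneth cell defensin Defa22 (r = 0.868) and Rnase1 (r = 0.868). Amotl2 was most like Edn1 (r = 0.875), followed by Jun and Nceh1 (r = 0.836). The members correlated with each other with r from 0.764 to 0.875. By Spearman's rho, Jun was again among the best 3 for Cyr61 (0.881), Thbs1 (0.850) and Amotl2 (0.882) but not for Edn1. These libraries share treatments, times and sets, so the values are a description.

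In sorted Lgr5+ cells, EGFR inhibition raised Edn1 and Thbs1. Edn1 was at 14.1 and 22.7 CPM in ENR and at 172 and 154 CPM in Ei in the Lgr5-GFP line, and at 44 and 35.6 CPM and then 232 and 182 CPM in the Lgr5-DTR line. In each line both Ei libraries lay far above both ENR libraries. The share of all genes that separate so in the sorted set was not determined. The mean change of the lines was 2.75 on the log2 scale (SE 0.27, adjusted p = 1.2e-05 by edgeR), or 6.75-fold. Lyz1 averaged 214 CPM (SD 142, n = 2) in ENR and 235 (SD 205) in Ei in the Lgr5-GFP line, and 355 (SD 13) and 237 (SD 63.6) in the Lgr5-DTR line. Dclk1 rose 5.90-fold in Lgr5+ cells in Ei (adjusted p = 0.00013 by edgeR), to at most 57.8 CPM, and the 4 immune markers summed to between 4.57 and 13.3 CPM there against at most 0.786 CPM in ENR; their part in the members' change was not tested.

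Thbs1 went from 5.03 and 1.42 CPM to 56.8 and 66.3 CPM in the Lgr5-GFP line, and from 6.29 and 9.03 CPM to 17.8 and 17.4 CPM in the Lgr5-DTR line. Ei and ENR did not overlap in either line, but the size differed. The mean log2 change was 2.74 (SE 0.54, adjusted p = 0.0058 by edgeR). Within lines it was 4.31 (SE 0.83, adjusted p = 0.011) in Lgr5-GFP and 1.17 (SE 0.71, adjusted p = 0.69) in Lgr5-DTR. The difference between lines was 3.13 (SE 1.1), with an unadjusted p of 0.00985 and an adjusted p of 1 by edgeR, so it did not pass. Without Lgr5-GFP ENR replicate 2 the mean change had an adjusted p of 0.054.

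Cyr61 was at 82.5 and 49.6 CPM in ENR and 232 and 174 CPM in Ei in the Lgr5-GFP line, and at 57.4 and 44.2 CPM and then 210 and 110 CPM in the Lgr5-DTR line. The groups did not overlap in either line, and the log2 change was 1.65 (SE 0.42, adjusted p = 0.028 by edgeR). Leaving out 1 library ended this call in 7 of 8 cases, with adjusted p up to 0.17, while the log2 change in each line alone was 1.63 (SE 0.59) and 1.66 (SE 0.59). The libraries whose removal ended it were both Lgr5-GFP Ei, both Lgr5-GFP ENR, both Lgr5-DTR ENR and Lgr5-DTR Ei replicate 1. Amotl2 had 16 counts or fewer in every Lgr5+ library, with a log2 change of 1.43 (95% interval -0.49 to 3.34). Of the checks on the inhibitor in these cells, the ERK target Etv4 fell 8.19-fold (adjusted p = 3.1e-05 by edgeR), Egr1 rose 2.14-fold (adjusted p = 0.025) and Dusp6 did not pass. In all, 3 of 4 tested members rose, beside 2.88% of the 10325 genes tested. Ankrd1, at 113 to 141 CPM in whole Ei organoids at 96 h, was counted 2 times in the 8 Lgr5+ libraries together. Edn2, the ligand endothelin 2, rose 8.68-fold in Lgr5+ cells in Ei (log2 3.12, SE 0.63, adjusted p = 0.0071 by edgeR), to 34.1 and 38.3 CPM in the Lgr5-GFP line and 21.3 and 28.9 CPM in the Lgr5-DTR line.

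In Dclk1+ cells, EGFR inhibition raised Edn1, from 1.36 and 2.48 CPM to 36.1 and 24.1 CPM, a log2 change of 3.84 (SE 0.57, adjusted p = 0.0014 by edgeR). The 2 Ei libraries lay above the 2 ENR libraries, which held 1 and 3 counts. Fitted on these 4 libraries alone the adjusted p was 0.27. Edn1 was the 1 of 4 tested members that rose, beside 1.1% of genes. Cyr61 was at 5.46 and 63.8 CPM in Dclk1+ ENR and 15.3 and 17.3 CPM in Ei, so the ENR libraries lay on either side of the Ei libraries. Its log2 change was -1.17 (SE 0.65, adjusted p = 0.32 by edgeR) and passed without ENR replicate 1, at an adjusted p of 0.021. Of the genes listed as endothelial or immune markers, Tek, Ptprc and Lyz2 had counts in Dclk1+ cells in ENR and in Ei. In Ei, Cdh5 and Cd74 had counts as well. Such counts alone do not show that other cell types were present. The 5 endothelial markers summed to between 23.2 and 41 CPM and the 4 immune markers to between 26.5 and 83.2 CPM. Emcn, Kdr, Pecam1 and Cd3e were at 0, and in Dclk1+ ENR only 1 endothelial marker, Tek, had counts. The part of these genes' source in the members' change was not tested. Thbs1 had 2 counts in Dclk1+ ENR and 6 in Ei, a count ratio of 1.96 (0.35 to 19.8).

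Sorted Lgr5+ cells in ENR stood above whole control organoids in Cyr61, Thbs1 and Edn1, 3 of the 4 tested members, beside 5.54% of genes. Cyr61 was at 3.67 and 1.62 CPM in the controls, 21-fold lower than in Lgr5+ cells (log2 4.39, SE 0.68, adjusted p = 3.8e-04 by edgeR). Edn1 was at 3.19 and 2.16 CPM there, 9.90-fold lower (log2 3.31, SE 0.41, adjusted p = 4.7e-05). Thbs1 had 2 counts in the controls against 35 in Lgr5+ cells, a count ratio of 17 (4.36 to 146), with an adjusted p of 0.01 by edgeR that was lost without Lgr5-GFP ENR replicate 1 or control replicate 1 (0.075 and 0.14). Lgr5 itself, the gene named by the sort, was at 40.7 and 48.5 CPM in the controls and averaged 45.5 CPM (SD 18.2, n = 2) and 46 CPM (SD 8.34) in Lgr5+ ENR cells, so its level did not mark the sort. Alpi, Muc2, Chga and Lyz1, which mark differentiated cells, were 5.40-fold to 32-fold lower in Lgr5+ cells (adjusted p from 7.8e-05 to 0.011 by edgeR). Ptma alone made up 12.2% to 22.3% of counts in the Lgr5+ libraries against 2.55% and 3.00% in the controls. The control files list 15984 genes and those of all sorted cells 15746, so sorting, dissociation, cell type and library set cannot be told apart in this comparison or in that of Dclk1+ cells with the controls.

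Dclk1+ cells in ENR were higher than controls in Cyr61 alone among the 4 tested members (log2 3.74, SE 0.73, adjusted p = 9.8e-04 by edgeR), beside 13.2% of genes. That call rests on Dclk1+ ENR replicate 2, at 63.8 CPM; without it the adjusted p was 0.46. Against Lgr5+ cells in ENR, Edn1 was lower in Dclk1+ cells by 3.69 on the log2 scale (SE 0.55, adjusted p = 5.9e-05 by edgeR), the 1 of 4 members called lower, beside 19.4% of genes lower and 18.9% higher. Dclk1 averaged 728 CPM (SD 91.3, n = 2) in the Dclk1+ ENR libraries and 3.78 CPM (SD 1.53) in the controls. Thbs1 had 35 counts in Lgr5+ ENR cells and 2 in Dclk1+ ENR cells, a count ratio of 4.68 (1.20 to 40.2). Cyr61 did not pass between these cells (log2 -0.65, SE 0.55, adjusted p = 0.36 by edgeR), but without Dclk1+ ENR replicate 2 it was lower in Dclk1+ cells, at an adjusted p of 0.0015.

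**Figure D3:**
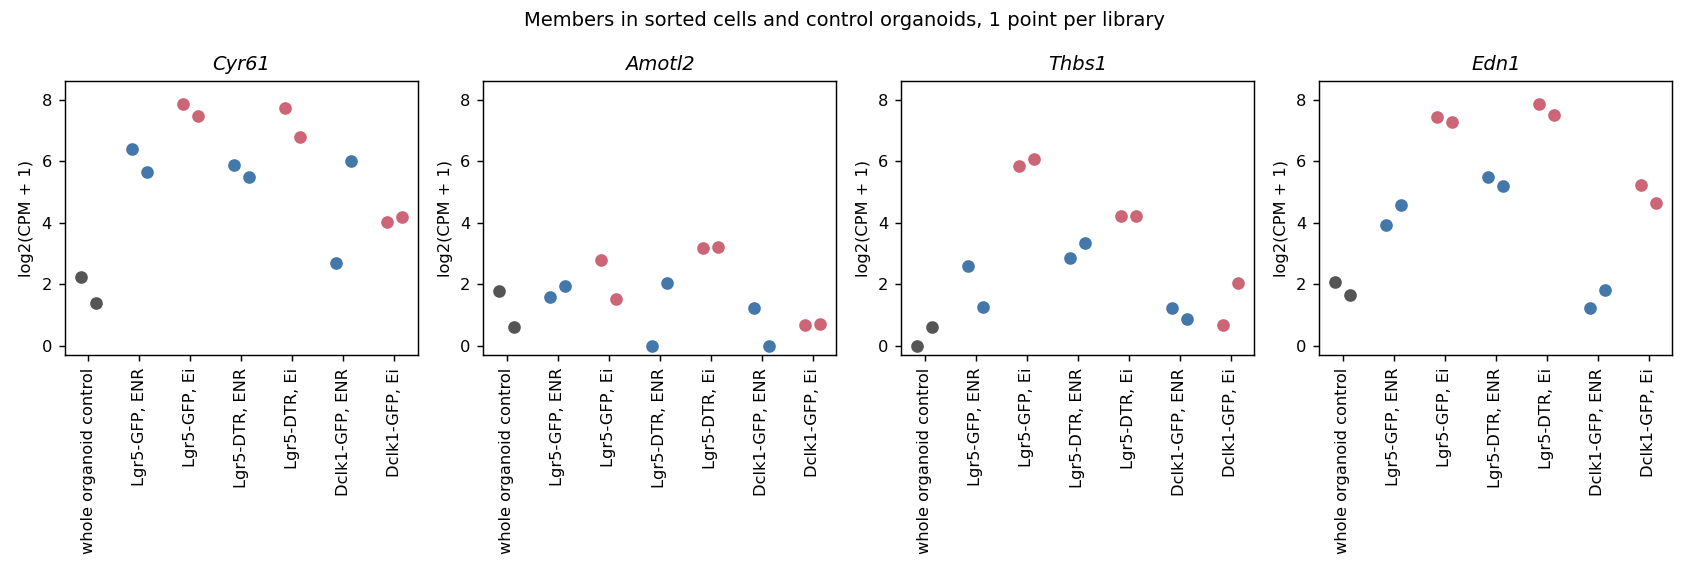
Log2(CPM + 1) of the 4 members tested in the sorted set, 1 point per library, with control organoids in grey, ENR in blue and Ei in red. Edn1 is higher in Ei than in ENR in both Lgr5+ lines and in Dclk1+ cells, and the Thbs1 step is larger in the Lgr5-GFP line than in the Lgr5-DTR line, a difference that did not pass its test.

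Single-cell libraries gave a further readout that the choice of members had not used. Wells with at least 1500 transcripts were kept, 74 in ENR and 71 in Ei, in 1 library each, so there is no test between conditions. Thbs1 was summed to 3 transcripts over the ENR wells, 2.59 transcripts per 1000000 of all transcripts (exact 95% Poisson interval 0.534 to 7.57), and to 52 over the Ei wells, 63.6 per 1000000 (47.5 to 83.4). Edn1 was at 13 per 1000000 (7.25 to 21.4) in ENR and 36.7 (24.8 to 52.4) in Ei. These intervals, which cover counting error only, did not overlap for either gene. However, 13 of the 30 Edn1 transcripts in Ei came from 1 well, and without it Edn1 was at 21 per 1000000 (12.2 to 33.6), which overlapped the ENR interval. Without the well highest in Thbs1, that gene was at 49.6 (35.4 to 67.5) in Ei. Cyr61 was at 6.91 per 1000000 (2.98 to 13.6) in ENR and 17.1 (9.36 to 28.7) in Ei and Amotl2 at 7.77 (3.55 to 14.8) and 18.4 (10.3 to 30.3), and those intervals overlapped. Ankrd1 had 0 transcripts in either library, which allows up to 3.19 per 1000000 in ENR and 4.51 in Ei as the upper end of its interval.

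The 52 Thbs1 transcripts in Ei came from 14 of 71 wells, with at most 12 in 1 well. Lyz1 was at 3460 per 1000000 over those 14 wells and at 186 per 1000000 over the other 57, and Mki67, a proliferation marker, was at 23 and 159 per 1000000. The 14 Ei wells with Edn1 held Lyz1 at 606 per 1000000 and the rest at 727. The wells with Thbs1 had a median of 7638 transcripts and those without had 10502, so the wells with Thbs1 were not the deeper ones. Lgr5 was at 276 per 1000000 in the wells with Thbs1 and 242 in the rest.

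Under Wnt and Notch inhibition, the IDE libraries held 60, 34, 50 and 23 wells and the IDM libraries 21 and 63. Cyr61 was at 34.8, 58.4, 25.5 and 0 per 1000000 in IDE and at 0 and 30.9 in IDM. Edn1 was at 21.6, 4.49, 4.63 and 0 per 1000000 in IDE and at 11.1 and 11.6 in IDM, and Thbs1 at 13.3, 13.5, 0 and 0 and at 0 and 15.5. The libraries at 0 were among those with the fewest transcripts, except IDE replicate 3 for Thbs1. Among these libraries Cyr61 and Amotl2 passed the filter, and the difference of IDM from IDE passed in neither by edgeR, at a log2 change of -0.52 (95% interval -2.07 to 1.03) and 0.22 (95% interval -1.64 to 2.08). In that comparison 0 members and 0 genes were called, and 0 members had an unadjusted p under 0.05; DESeq2 was not run on it.

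**Figure D4:**
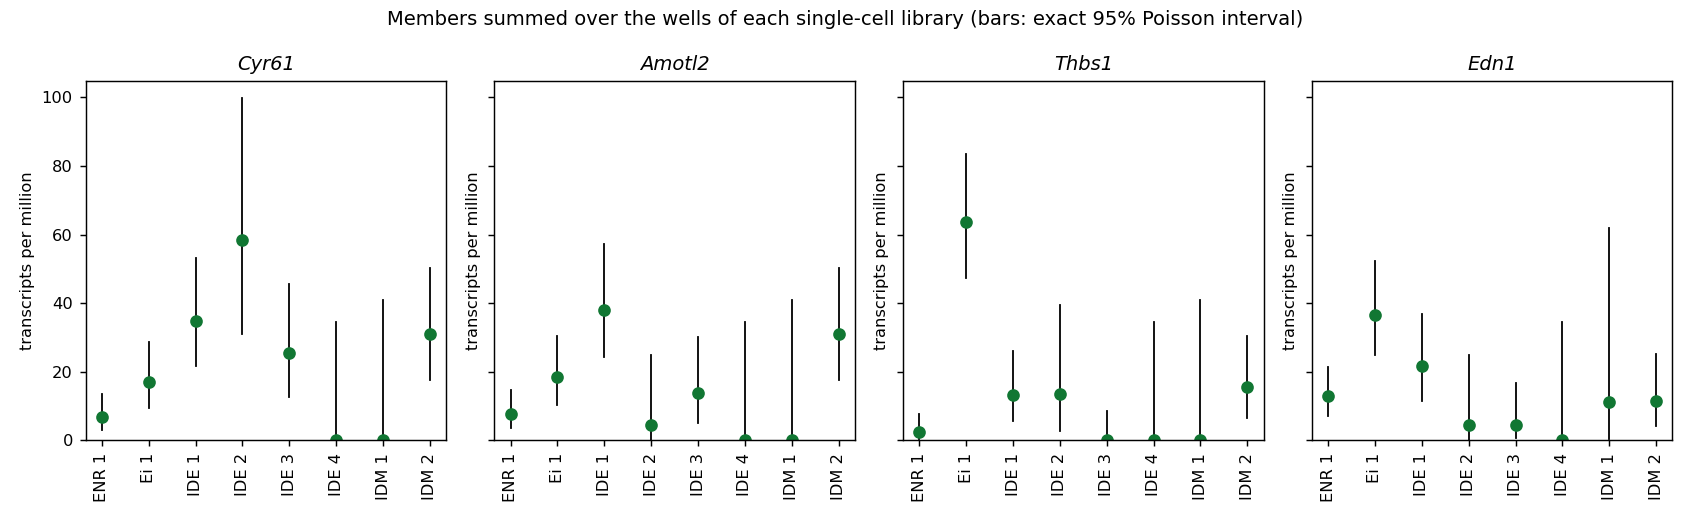
Transcripts per 1000000 of 4 members summed over the wells of each single-cell library, with exact 95% Poisson intervals that cover counting error only. Thbs1 in Ei, at 63.6 transcripts per 1000000, lies above the intervals of every other library, and Cyr61 is not higher in ENR or Ei than in IDE replicates 1 to 3.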

How the data were processed

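Per the labels, CEL-seq libraries were made from Bl/6 mouse small-intestinal organoids or cells sorted from them. The 50 bulk libraries were used as the authors deposited them, as raw counts per gene. For the 8 single-cell libraries the authors deposited transcript numbers corrected for barcode collisions, by gene and well, which are not raw counts; they were rounded to whole transcripts. The aligner was BWA 0.6.2-r126 and the genome build mm10, per the submitters' processing notes; the counting program and annotation were not given in the sources used here. Spike-in rows were left out. Some replicate numbers in sorted library names differ from the titles, which were followed.

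The 6 h, 96 h and sorted sets were each fitted over all their groups with edgeR 4.0.16 (filterByExpr, minimum count 10; TMM; quasi-likelihood test) in R 4.3.3, checked on simulated data. Adjusted p are Benjamini-Hochberg over all genes tested in a comparison, with a threshold of 0.05. A group at 3 counts or fewer gave a count ratio with an exact 95% interval, or no fold if both groups were. Lgr5+ cells were compared by the mean response of both lines. Single cells of IDM and IDE were summed per library. If only 1 library of a group remained after leaving 1 out, its spread was taken to equal that of the remaining groups. Alternatives were DESeq2 1.42.0, RLE scaling, no filter, fits on the compared libraries alone, the replicate number as a block, and libraries left out. Added after seeing the data were Ptma left out, thinned 96 h libraries, each Lgr5 line alone, the difference between lines, and single-cell levels without the highest well. Correlations used edgeR's log2 CPM with a prior count of 2, scaled to the library size. Promoters and positions came from RefSeq and GENCODE M21. Analyses used Python 3.11.15 and figures matplotlib 3.10.9.

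The members and gene lists were chosen with earlier results of these data known. Named were all members, from each list up to 4 called genes of smallest adjusted p whose higher group averaged 20 CPM or more, the 3 genes most like each member, and Dusp6, Egr1, Lgr5 and Dclk1 as checks. Lyz1, Chga and other lineage markers come from a list under this rule. A gene that the naming rule selects among those most alike to a member is not reported here.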

Additional observations from a re-analysis of the deposited data

Results flagged for a closer look

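At 96 h the change made by an inhibitor in ID minus that in ENR passed the call rule over all genes for 4 members with EGFR inhibition and 1 with Mek inhibition. These differences contain the changes in standard medium that the choice of members used, so they are a description and not a test. The log2 change in ID minus that in ENR was -2.72 for Cyr61, -3.91 for Thbs1, -4.97 for Edn1 and -2.62 for Amotl2 with the EGFR inhibitor, and -3.84 for Edn1 with the Mek inhibitor. Each rests also on ID libraries from another set than ENR, and, for Thbs1, on 5 counts in the ID group. Thbs1 no longer passed without ID replicate 1, and Cyr61 no longer passed without ID replicate 3. With the 96 h libraries thinned to the smallest, Edn1 alone passed for the EGFR inhibitor; a cause for the difference was not tested. Among the 4 IDE single-cell libraries, no member with more than 3 transcripts in the group had a library standing apart.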

How the results depend on the processing

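Of 1261 recomputed member changes, 1206 kept their side of the threshold, 46 lost the call, 9 gained one and 0 called changes turned round. Changes that were not called could turn round within the 1206. Cyr61 in ID against ENR at 6 h ran from -0.27 to 0.51 on the log2 scale as libraries were left out. Counts of called members moved by over 1.5 times in these cases. Thinning leaves fewer counts. In IDM against ID at both times, Thbs1 did not pass the low-count filter in the fit on the compared libraries alone. The cause of the other moves was not tested. With no low-count filter, Mi against Ei at 6 h gave 1 (Edn1) in place of 0. With the compared libraries alone, IDM against ID at 6 h gave 1 in place of 2, and IDE against ID and IDM against ID at 96 h and Dclk1+ cells in Ei against ENR and in ENR against controls gave 0 in place of 1. DESeq2 gave 2 in place of 1 for the Mek inhibitor in ID minus in ENR at 96 h. Thinning the 96 h libraries to the smallest gave 0 in place of 2 for ID against ENR, 0 in place of 1 for IDE and IDM against ID, and 1 in place of 4 for the EGFR inhibitor in ID minus in ENR. The Lgr5-DTR line alone gave 1 in place of 3 for Lgr5+ cells. Leaving out 1 library gave counts from 1 to 3 for Ei against ENR and Mi against ENR at 6 h and for Lgr5+ cells in Ei, from 1 to 2 for ID against ENR and for the Mek difference at 96 h, from 0 to 1 for IDE and for IDM against ID at 96 h and for Dclk1+ cells against controls, and from 1 to 2 for Dclk1+ cells in Ei and against Lgr5+ cells. The 5 of 5 members in Ei and in Mi against ENR at 96 h did not change when any of those libraries was left out. The counts at 6 h include members that passed the low-count filter in those fits alone, Lats2 higher in Ei without ENR replicate 1 and Ctgf lower in Mi without ENR replicate 2. Thbs1 in Ei at 6 h lost its call in 5 of 6 such fits and with DESeq2. Cyr61 there lost it without ENR replicate 3 or Ei replicate 3, and in Mi without ENR replicate 3. The replicate block raised Amotl2 in IDM against ID at 6 h past the threshold (adjusted p = 0.048 by edgeR) and changed no other call. The median correlation of the deviations of same-numbered libraries was 0.000, 0.005 and 0.016 in the 6 h, 96 h and sorted sets. In these sets 8 of 18, 6 of 18 and 12 of 14 libraries correlated best with their own number. Whether the numbers pair the sorted libraries was therefore not settled. Depth limits Ctgf, Lats2 and, outside Ei and Mi at 96 h, Ankrd1.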

Other observations

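Core Hippo genes differed between the sorted cell types in ENR. Dclk1+ cells had 7 of 15 tested genes of that list higher and 3 lower than Lgr5+ cells, beside 18.9% of the 10325 genes tested that were higher and 19.4% that were lower. Yap1 was 9.98-fold lower (adjusted p = 2.7e-04 by edgeR) and Tead1 5.56-fold higher (adjusted p = 5e-04), with Nf2 2.14-fold higher (adjusted p = 0.0063). Of the 8 further YAP targets tested there, 2 were higher and 1 lower, a share near that of all genes, among them Gadd45a, 3.80-fold higher (adjusted p = 4.4e-04 by edgeR). The 3 tested genes of the endothelin system other than Edn1 were all lower in Dclk1+ cells, Ece2 by 14.1-fold (adjusted p = 0.0016 by edgeR) and Ece1, which encodes an endothelin-converting enzyme, by 2.13-fold (adjusted p = 0.026). In whole organoids at 96 h, Edn2 was at 0 counts in ENR and in ID and averaged 7.15 CPM (SD 3.64, n = 3) in IDE and 3.77 (SD 0.686) in IDM.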
